A study of Mus musculus with 12 samples.

Results

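The Toll-like receptor genes Tlr1, Tlr2, Tlr3, Tlr4, Tlr6, Tlr7, Tlr8 and Tlr9, the co-receptor gene Cd14 and the adaptor gene Myd88 were followed in cardiac macrophages (Mφ) sorted from hearts under β-adrenergic stimulation. The 10 genes were chosen by name, as a receptor family with a co-receptor and a shared adaptor, out of 24445 gene symbols counted. All 10 were in the files, and all 10 were among the 14608 genes that passed the filter on low counts. The study asked how cardiac Mφ differ between an early hypertrophic and a later failing heart. Adult male C57BL/6J mice, aged 9 to 20 weeks over all experiments of the study, carried an osmotic pump. Pumps delivered saline in the control group (Ct, 4 libraries), isoproterenol at 30 mg/kg/day for 14 days in the group with early concentric hypertrophy (ECH, 4 libraries) or the same dose for 28 days in the group with heart failure (HF, 4 libraries), with 1 mouse to a library. How long Ct mice received saline was not given, and isoproterenol, an agonist of β-adrenergic receptors, was the only agent. CD45-enriched, CD11b+ heart cells were sorted on CD14 and CD64, so that Cd14, a member of the set, was also a gate of the sort.

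Toll-like receptors are membrane proteins of innate immune cells that recognise microbial molecules and some molecules released by damaged tissue. Tlr1, Tlr2, Tlr4 and Tlr6 act at the cell surface on lipopeptides and lipopolysaccharide, while Tlr3, Tlr7, Tlr8 and Tlr9 sit in endosomes and read nucleic acids. Cd14 hands lipopolysaccharide to the complex of Tlr4 and Ly96, and Myd88 carries the signal of all of these receptors except Tlr3 to the Irak kinases, NF-κB and interferon regulatory factors. Resident cardiac Mφ take up debris of cardiomyocytes, which holds endogenous nucleic acids and other ligands of the family.

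The 12 libraries held 88466559 to 111180291 counts, and 13600 to 15940 genes had at least 1 count in a library. Values below are CPM, each gene's counts relative to the TMM-scaled total of its library, and 3 counts, the limit taken for a count of 0, were worth 0.0259 to 0.0349 CPM. HF library 1, with 13600 genes detected, and Ct library 2, with 14489, were the lowest of their groups. The library numbers in the labels ran from 1 to 6 once over Ct and ECH libraries 1 and 2, and once more over HF and ECH libraries 3 and 4, and these were taken as inferred library sets A and B. The sources used here do not call them batches. Mφ markers (Csf1r, Adgre1, Fcgr1, Cd68, Lyz2, C1qa, Mertk and Itgam) summed to 22462 to 32257 CPM over all libraries. Markers of B cells, which use several of these receptors, summed to 104 to 477 CPM in Ct, against 37.1 to 84.1 CPM in ECH and 51.2 to 79.3 CPM in HF. Markers of plasmacytoid dendritic cells, the cells best known for Tlr7 and Tlr9, summed to 28.2 to 91.2 CPM in Ct, 17.3 to 21.2 CPM in ECH and 16.3 to 29.6 CPM in HF. These markers were Siglech, Ccr9, Ly6d, Klk1 and Cox6a2. Ly6d averaged 30.2, 4.54 and 5.61 CPM in Ct, ECH and HF, Siglech 22.4, 6.32 and 12.2 CPM, and Cox6a2 8.16, 7.55 and 5.49 CPM. Ccr9 and Klk1 averaged 0.968 and 0 CPM in Ct, so that the sums mainly followed the other markers. Ct library 2 had the lowest total of the 12 libraries, 88466559 counts. It also had the highest summed markers of B cells (477 CPM), neutrophils (1612 CPM), T and NK cells (58.6 CPM) and cardiomyocytes (196 CPM). Their part in its receptor values was not tested. In sorted but bulk RNA, fewer cells of a type and less RNA per cell cannot be told apart.

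All 10 genes were measured in every library, and their levels per kilobase of annotated exon, with means over all 12 libraries, spanned a wide range. Cd14 stood first at 1352 CPM per kb (988.9 to 1728), apart from every other gene. Tlr2 followed at 116 CPM per kb and was above Tlr7 in 12 of 12 libraries. Tlr7 (56.3), Myd88 (52.1), Tlr8 (45.6) and Tlr4 (30.3 CPM per kb) formed the middle, where ranges overlapped: Tlr7 was above Myd88 in 4 of 12 libraries, Myd88 above Tlr8 in 9 of 12 and Tlr8 above Tlr4 in 11 of 12. Tlr1 stood at 17.2 CPM per kb, below Tlr4 and above Tlr6 in 12 of 12 libraries. Tlr6 (4.85) and Tlr3 (3.17 CPM per kb) were low and overlapped, and Tlr9 was last at 0.726 CPM per kb. Dividing by the mean transcript length instead placed Tlr8 and Tlr4 above Myd88 and changed no other rank.

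**Figure D1:**
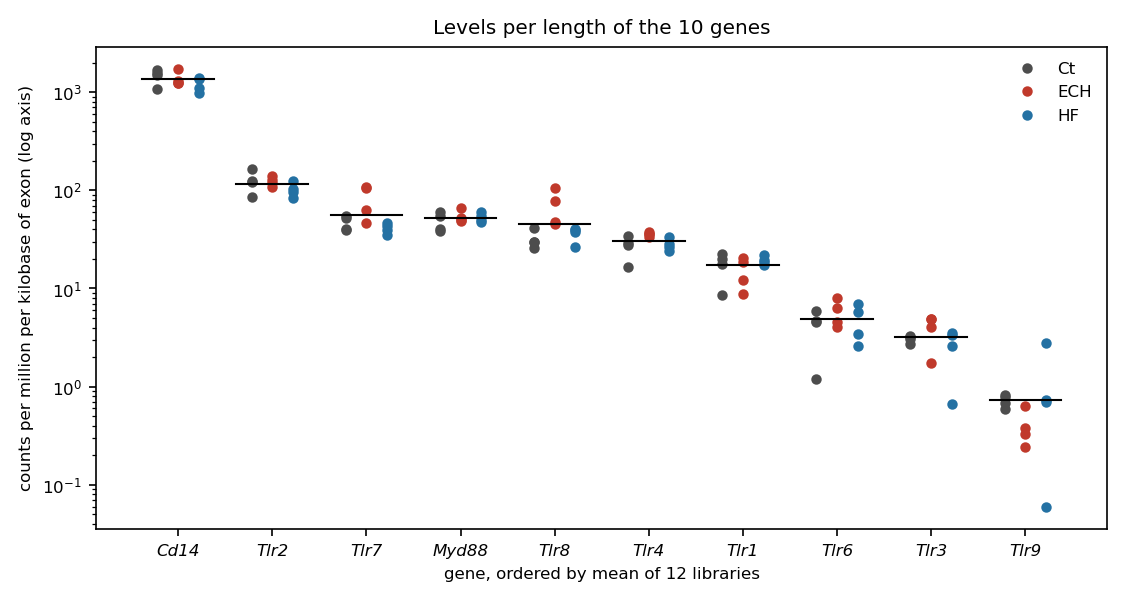
Level of each of the 10 genes in each of the 12 libraries, in CPM per kb of exon on a log axis, with Ct, ECH and HF libraries as grey, red and blue points and the mean of 12 libraries as a line. Cd14 lies apart at the top (1352 on average), Tlr9 lies lowest (0.726), and Tlr7, Myd88, Tlr8 and Tlr4 overlap in the middle.

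The lipopeptide receptors had overlapping ranges in all 3 groups. Tlr2, the common partner of Tlr1 and Tlr6 (chromosome 3 of GRCm38, 83836272 to 83841767), read 492, 261, 375 and 366 CPM in Ct libraries 1 to 4, 422, 389, 325 and 356 CPM in ECH, then 311, 373, 289 and 252 CPM in HF. These ranges overlapped throughout, and the ECH libraries lay within the range of Ct. Tlr1, which with Tlr2 recognises triacylated lipopeptides, read 58.9, 29.0, 67.3 and 75.5 CPM in Ct, 61.7, 68.5, 40.9 and 29.6 CPM in ECH, then 74.1, 58.2, 62.5 and 65.2 CPM in HF. Its low values were Ct library 2 and ECH libraries 3 and 4, whereas the HF libraries lay close together. Tlr6, which with Tlr2 recognises diacylated lipopeptides, read 22.2, 4.49, 16.9 and 17.6 CPM in Ct, 16.97, 14.9, 29.9 and 23.7 CPM in ECH, then 12.9, 9.63, 21.7 and 26.0 CPM in HF. Ct library 2 was again the lowest, and the groups overlapped.

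Tlr1 and Tlr6 are neighbours on the minus strand of chromosome 5 (64924679 to 64933563 and 64952031 to 64960097), 18467 bases apart, and near-identical over part of their single coding exons. Of the 75-base words of their transcripts, the read length, 10.6% of Tlr1 and 9.25% of Tlr6 also occurred in another gene, in each case mostly the other one, so that some reads could have been split between them. The longest identical run, 229 bases, covered coding bases 1468 to 1696 of 2388 in Tlr1 (chr5:64925537-64925765, minus strand) and 1507 to 1735 of 2421 in Tlr6 (chr5:64953828-64954056, minus strand). It is shown, from the GENCODE M21 transcripts, because a read that falls wholly inside it could come from either gene.
Tlr1 and Tlr6 shared run: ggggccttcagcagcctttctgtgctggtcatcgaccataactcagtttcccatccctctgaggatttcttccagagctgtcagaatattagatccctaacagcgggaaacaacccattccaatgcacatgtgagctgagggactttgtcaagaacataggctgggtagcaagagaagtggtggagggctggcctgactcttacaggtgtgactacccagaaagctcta
The Tlr6 count was 0.155 to 0.399 of the Tlr1 count in 10 libraries and 0.731 and 0.801 of it in ECH libraries 3 and 4. Those libraries therefore stood apart in the balance of the pair, with lower Tlr1 and higher Tlr6 than ECH libraries 1 and 2.

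The ranges of the lipopolysaccharide receptor, its co-receptor and the shared adaptor overlapped between all groups. Tlr4 (chromosome 4, 66827584 to 66930284) read 154, 91.4, 191 and 159.9 CPM in Ct, 201, 185, 199 and 211 CPM in ECH, then 134, 187, 159 and 148 CPM in HF. The ECH libraries were close together and at the top, but Ct library 3 and HF library 2 reached into their range. Cd14 (chromosome 18, 36725067 to 36726798) read 2719, 2602, 2942 and 1888 CPM in Ct, 2993, 2139, 2167 and 2247 CPM in ECH, then 2374, 2396, 1713 and 1920 CPM in HF. Groups overlapped in this gene as well, and ECH library 1 stood above the other ECH libraries. Myd88 (chromosome 9, 119335934 to 119341411) read 140.1, 98.4, 156 and 104 CPM in Ct, 172, 136, 128 and 126 CPM in ECH, then 129, 156, 123 and 141 CPM in HF, again with overlap. It had the lowest coefficient of variation of the set over the 12 libraries, 15.7%, against 17.6% for Cd14 and 94.4% for Tlr9. Its exons overlap those of Acaa1a on the opposite strand by 290 bases, 11.3% of its exon length, and the strand setting of the counting is not given. Acaa1a held 0.426 to 0.935 counts per Myd88 count in Ct, with ECH at 0.492 to 0.694 and HF at 0.539 to 0.793.

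Among the endosomal receptors, Tlr7 and Tlr8 were higher in ECH libraries, above all in ECH libraries 3 and 4. Tlr8, a receptor of RNA degradation products in human cells and a close relative of Tlr7, read 106, 93.2, 108 and 149 CPM in Ct, 162, 170.1, 377 and 278 CPM in ECH, then 93.9, 136, 141 and 145 CPM in HF. Every ECH library lay above every Ct and every HF library, a pattern found in 86 of the 14608 genes tested (0.589%). Tlr7, which recognises single-stranded RNA, read 212, 162, 166 and 223 CPM in Ct, 257, 192, 428 and 445 CPM in ECH, then 177, 191, 160.2 and 143 CPM in HF. Here ECH library 2 fell within the range of Ct, while every ECH library lay above every HF library, at the closest by 191.6 against 190.9 CPM. From its lowest to its highest library, Tlr7 spanned a range of 3.12-fold and Tlr8 of 4.05-fold, but the Tlr8 count stayed between 0.503 and 1.02 of the Tlr7 count.

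**Figure D2:**
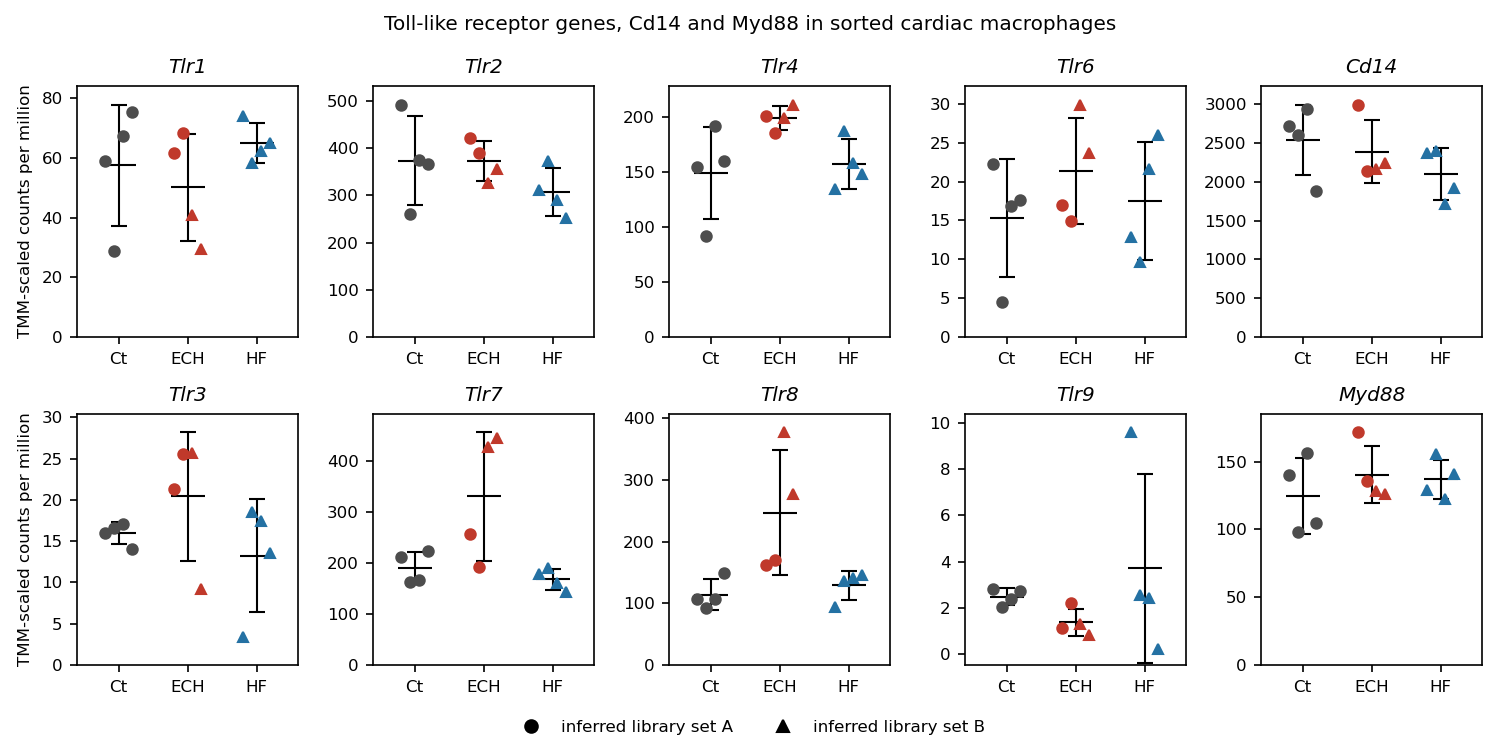
TMM-scaled CPM of the 10 genes in each library by group, on linear axes, with the mean and SD of 4 libraries in black, circles for inferred library set A and triangles for set B. Tlr7 and Tlr8 reach 445 and 377 CPM in ECH libraries of set B, and the Tlr9 bar of HF is drawn wide by the library at 9.63 CPM.

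Tlr7 and Tlr8 lie next to each other on the minus strand of chromosome X (167304929 to 167330558 and 167242696 to 167264329 of GRCm38), 40599 bases apart. None of the 75-base words of either gene's transcripts occurred in another gene. The 250 bases upstream of the RefSeq start of Tlr8 (GRCm38.p6, chrX:167264330-167264579, minus strand) are shown since this gene of the set differed most between ECH and Ct. Capitals mark the only match found in it, TTGCNNAA on the opposite strand, the letters searched for C/EBP, 29 bases before the start.
Tlr8 upstream: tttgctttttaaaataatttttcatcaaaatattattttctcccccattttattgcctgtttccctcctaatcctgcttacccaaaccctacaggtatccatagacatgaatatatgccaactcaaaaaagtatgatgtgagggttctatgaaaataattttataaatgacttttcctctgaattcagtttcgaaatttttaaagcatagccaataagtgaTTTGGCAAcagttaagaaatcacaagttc
The letters TTGCNNAA occurred, on either strand, in 9.56% of 32851 RefSeq windows of this length and in 3 of 9 windows of the set, those of Tlr8, Tlr6 and Tlr3. The letters GAAA, any 2 bases and GAAA, searched for interferon-stimulated response elements, were present in 2 of 9, of Tlr6 and Myd88, against 2.98% of all windows, and AGGAAGT, searched for PU.1, in 2 of 9, of Tlr1 and Tlr6, against 7.69%. GGG, any 2 bases and TTTCC, searched for NF-κB, was found in the Tlr3 window (1.41% of all windows), TGANTCA for AP-1 in that of Tlr9 (6.75%) and CACGTG for TFE factors in a window of Tlr1 (6.02%). TGACGTCA, the cyclic AMP response element, was in 0 of 9 windows and 1.55% of all. Tlr1 and Tlr6 had more than 1 window each, and Tlr4, Tlr7 and Cd14 were not among those searched.

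Tlr3 and Tlr9 were low. Tlr3, the receptor of double-stranded RNA that signals through Ticam1 rather than Myd88 (chromosome 8, 45395665 to 45411080), read 15.96, 16.6, 17.1 and 14.0 CPM in Ct, 21.3, 25.5, 25.6 and 9.15 CPM in ECH, then 3.44, 18.5, 17.4 and 13.6 CPM in HF. Its ECH libraries lay above the others except for ECH library 4, and HF library 1 was the lowest. Tlr3 also overlaps an antisense transcript, Gm45542, over 381 bases. Tlr9, the receptor of unmethylated CpG DNA (chromosome 9, 106222598 to 106226883), read 2.83, 2.04, 2.38 and 2.72 CPM in Ct, 1.148, 2.22, 1.31 and 0.847 CPM in ECH, then 9.63, 2.55, 2.44 and 0.206 CPM in HF. Counts for Tlr9 ran from 23 to 1006, and its highest and lowest libraries were both HF libraries, 46.8-fold apart.

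In the comparison of ECH with Ct Mφ, which addresses early hypertrophy, Tlr8 was 2.16-fold higher (log2 1.11, SE 0.26, FDR 0.0914) and Tlr7 1.73-fold higher (log2 0.79, SE 0.24, FDR 0.192). Neither passed the FDR of 0.05 in the edgeR quasi-likelihood test. Tlr4 was 1.33-fold higher (log2 0.42, SE 0.19, FDR 0.406). The number of genes of the set past the FDR of 0.05 was 0 of 10, where 0.472% of all genes tested were called. At an unadjusted p under 0.05 the number was 3 of 10, Tlr4, Tlr7 and Tlr8, all higher in ECH, where 11.9% of all genes were under it and 6.03% were under it with ECH higher. Only Tlr8 had groups that did not overlap, as had 7.97% of all genes. The median log2 fold change of the 10 was 0.26, against 0.01 over all genes. Tlr2 differed by -0.0029 on the log2 scale (95% interval -0.40 to 0.39), Cd14 by -0.09 (-0.46 to 0.29) and Myd88 by 0.17 (-0.19 to 0.53). The intervals of Tlr6 (-0.45 to 1.42), Tlr3 (-0.57 to 1.28) and Tlr9 (-2.54 to 0.84) were wider. With DESeq2, Tlr8 (FDR 0.00250) and Tlr7 (FDR 0.0420) were called, as was Tlr8 with edgeR's likelihood ratio test (FDR 0.00421), in fits that called 480 and 367 genes in all, against 69 with the quasi-likelihood test.

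The ECH libraries of the inferred sets gave different values in this comparison. Against Ct, which is all of set A, ECH libraries 1 and 2 of the same set, fitted without the others, gave log2 fold changes of 0.53 for Tlr8 (FDR 0.947) and 0.22 for Tlr7 (FDR 0.951). ECH libraries 3 and 4, of set B, gave 1.51 for Tlr8 (FDR 0.0439) and 1.19 for Tlr7 (FDR 0.0503) against Ct, with 73 genes called in all. Without ECH library 2, Tlr7 was called in the fit of the other 11 libraries (log2 0.98, FDR 0.0487).

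In the comparison of HF with Ct Mφ, which addresses the failing heart, no gene of the set stood out. The log2 fold changes ran from -0.29 for Tlr2 to 0.57 for Tlr9, and FDR values from 0.470 to 0.890. Of the 10 genes, 0 passed the FDR of 0.05 (0.513% of all genes were called) and 0 were under an unadjusted p of 0.05, where 16.1% of all genes were, and DESeq2 called 0 as well. The groups overlapped for all 10, while 9.04% of all genes had groups apart. Tlr7 differed by -0.19 (95% interval -0.70 to 0.33) and Tlr8 by 0.18 (-0.38 to 0.73) on the log2 scale. The Tlr9 value rested on HF library 1: without it the log2 fold change was -0.52. All HF libraries were of set B and all Ct libraries of set A, and a fit with set as a term, which only the ECH libraries inform, gave -1.148 for Tlr7 (FDR 0.0509) and -0.80 for Tlr8 (FDR 0.232).

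In the comparison of HF with ECH Mφ, Tlr7 and Tlr8 were lower in HF, with log2 fold changes of -0.98 (SE 0.24, FDR 0.491) and -0.94 (SE 0.26, FDR 0.522), and neither passed the test. Both had groups that did not overlap, as had 6.92% of all genes. At an unadjusted p under 0.05 the number was 2 of 10, Tlr7 and Tlr8, against 7.98% of all genes and 5.17% with HF lower. The FDR of 0.05 was passed by 0 of 10 and by 0 of the 14608 genes tested (0%), with 1165 genes at an unadjusted p under 0.05, while DESeq2 called 72 genes, Tlr7 among them (FDR 0.0214). The other 8 genes ranged from -0.63 for Tlr3 to 1.42 for Tlr9. Within set B, HF against ECH libraries 3 and 4, the fall was called for Tlr7 (log2 -1.38, FDR 0.00345) and Tlr8 (log2 -1.34, FDR 0.0126), and Tlr1 was called higher in HF (log2 0.88, FDR 0.0304), in a fit that called 962 genes in all. HF against ECH libraries 1 and 2, of the other set, gave -0.42 for Tlr7 and -0.37 for Tlr8 (FDR of 1 for both).

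**Figure D3:**
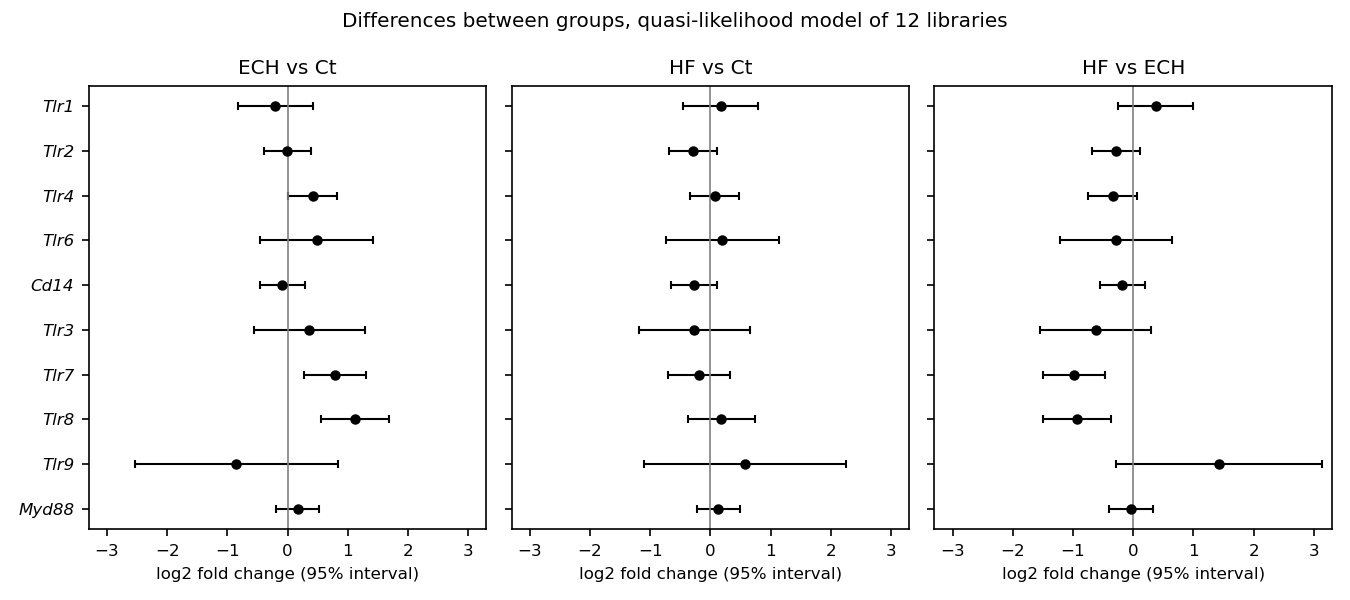
Log2 fold change with its 95% interval for each of the 10 genes in the comparisons ECH vs Ct, HF vs Ct and HF vs ECH, from the model of 12 libraries. The intervals of Tlr4, Tlr7 and Tlr8 lie above 0 in ECH vs Ct, those of Tlr7 and Tlr8 below 0 in HF vs ECH, no interval excludes 0 in HF vs Ct, and no gene passed the FDR of 0.05.

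The Toll-like receptor genes outside the set were Tlr5, Tlr11, Tlr12 and Tlr13, and 1 of these 4 passed the test. Tlr13, a mouse endosomal receptor of bacterial ribosomal RNA (chromosome X, 106143204 to 106160493, 61082202 bases from Tlr8), read 129, 134, 119 and 154 CPM in Ct, 231, 232, 413 and 317 CPM in ECH, then 192, 192, 144 and 188 CPM in HF. Like Tlr8 it was higher in every ECH library than in any Ct or HF library, and ECH libraries 3 and 4 were the highest. It rose 2.23-fold in ECH against Ct (log2 1.16, SE 0.19, FDR 0.0202), and the call was lost without Ct library 1 (FDR 0.0730), without ECH library 4 (FDR 0.0521) and with ECH libraries of the same set only (log2 0.78, FDR 0.517). It was also lost with library set as a covariate (log2 0.79, FDR 0.113), with only the groups compared (FDR 0.0890), with a replicate block (FDR 0.0686) and without Ct library 2 and HF library 1 (FDR 0.0562). Against ECH, Tlr13 in HF differed by -0.73 (FDR 0.491), and within set B by -1.03 (FDR 0.0143). Tlr5, the flagellin receptor, read 14.0 to 43.6 CPM in Ct, 44.5 to 53.9 CPM in ECH and 38.9 to 47.1 CPM in HF (ECH against Ct log2 0.89, FDR 0.169). Tlr11 and Tlr12 were low, at 0 to 4.21 CPM and 0.792 to 8.33 CPM.

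**Figure D4:**
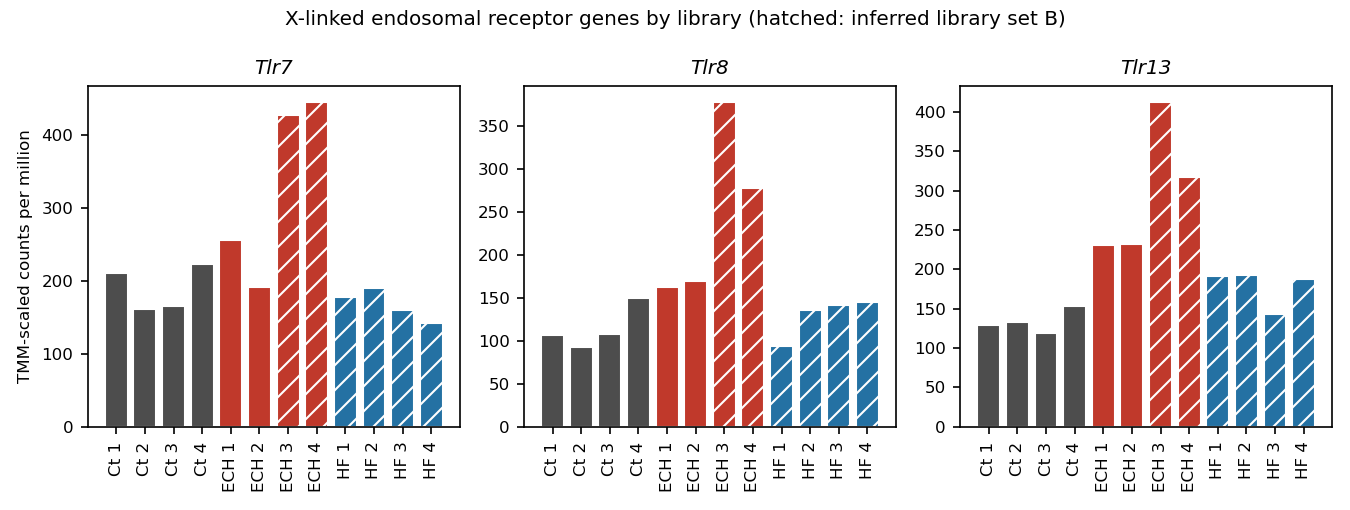
TMM-scaled CPM of Tlr7, Tlr8 and Tlr13 as bars from 0 for each of the 12 libraries, grey for Ct, red for ECH and blue for HF, with hatching for inferred library set B. All 3 genes are highest in ECH libraries 3 and 4, and in HF, also of set B, Tlr7 and Tlr8 are at 93.9 to 191 CPM.

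Markers of Mφ and of other cells are given beside the Tlr7 and Tlr8 values. Of the 8 Mφ markers, 7 had positive and 1 a negative log2 fold change in ECH against Ct (median 0.19, 0 called), and of 7 B cell markers 7 were negative (median -2.25, 1 called). Of the 4 plasmacytoid dendritic cell markers tested, 4 were negative (median -1.57, 0 called). Neutrophil markers were negative in 6 of 7 (median -1.32, 0 called). T and NK cell markers were negative in 6 of 6 tested (median -1.63, 0 called). Of 6 monocyte markers, 3 were positive and 3 negative (median -0.18, 0 called). Their sums were 296 to 599 CPM in Ct and 518 to 689 CPM in ECH. Classical dendritic cell markers were positive in 4 of 6 (median 0.065, 0 called). Their sums were 53.9 to 68.3 CPM in Ct and 78.7 to 127 CPM in ECH. Fibroblast markers were positive in 6 of 6 (median 1.19, 0 called), with sums of 27.9 to 175 CPM in Ct and 74.7 to 432 CPM in ECH. ECH libraries 3 and 4, where Tlr7 and Tlr8 were highest, had lower summed Mφ markers (23312 and 22462 CPM) than ECH libraries 1 and 2 (32257 and 29918 CPM). The Ct libraries summed to 22895 to 23943 CPM. Most of each sum was Lyz2, at 12791 to 21130 CPM in ECH, so that the sums mainly followed this gene. Summed endothelial cell markers (103 and 70.8 CPM against 37.0 and 41.3 CPM) and cardiomyocyte markers (119 and 135 CPM against 75.4 and 63.4 CPM) were higher in ECH libraries 3 and 4. The endothelial sums were mostly Fabp4, at 21.9 to 78.5 CPM in ECH, and the other endothelial markers stood at 10.9 CPM or less there. Fibroblast marker sums of 74.7 and 432 CPM in libraries 3 and 4 lay on either side of the 220 and 122 CPM in libraries 1 and 2. For classical dendritic cells, 127 and 78.7 CPM lay on either side of 88.6 and 81.8 CPM. For monocytes, 689 and 518 CPM lay on either side of 535 and 622 CPM. Of the classical dendritic cell markers, Cd209a averaged 45.2 CPM in Ct and 49.0 CPM in ECH, and Flt3 3.17 and 27.1 CPM. The part of these markers in the Tlr7 and Tlr8 values was not tested.

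The rest of the pathway was covered by 9 lists with 106 genes, of which 103 were tested. Of these, 1 was called higher and 0 lower in ECH against Ct, 1 higher and 1 lower in HF against Ct, and 0 in HF against ECH, against the 0.472%, 0.513% and 0% of all genes. Among 10 co-receptors and chaperones 0 were called, and Unc93b1, which carries the endosomal receptors to endosomes, averaged 1451 CPM in Ct Mφ, 1323 CPM in ECH Mφ and 1450 CPM in HF Mφ. Ly96, the partner of Tlr4, stood at 68.2, 65.4 and 66.1 CPM, while the chaperone Hsp90b1 (565, 620 and 799 CPM) gave a log2 fold change of 0.50 in HF against Ct (FDR 0.270). Lbp, which carries lipopolysaccharide to Cd14, stood at 0.520, 3.43 and 1.89 CPM.

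Nucleases and proteases of the endosomal receptors included several higher values in ECH without a call among 11 genes. Pld3, an exonuclease that degrades ligands of endosomal receptors, stood at 136 to 211 CPM in Ct, 261 to 351 CPM in ECH and 239 to 277 CPM in HF (ECH against Ct log2 0.69, FDR 0.0659). The lysosomal protease Ctsl stood at 300.1 to 466 CPM, 478 to 799.8 CPM and 416 to 548 CPM (log2 0.88, FDR 0.0730), and Ctsb at 5145 to 5744 CPM, 6385 to 8760 CPM and 7772 to 8577 CPM (HF against Ct log2 0.56, FDR 0.0568). In Pld3, Ctsb, Ctss and Ctsk every ECH and every HF library lay above every Ct library, and in Ctsl every ECH library did. Ctsk was low, at 0 to 1.01 CPM in Ct, 2.62 to 5.15 CPM in ECH and 2.20 to 4.58 CPM in HF. Of all genes, 4.33% had every ECH library above every Ct library, and 4.59% had every HF library above every Ct library. The share of genes with both was not counted. At an unadjusted p under 0.05, 5 of the 11 were higher in ECH and 0 lower, against 6.03% and 5.89% of all genes.

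Downstream of the receptors, 0 of 5 other adaptors, 0 of 18 kinases and ubiquitin ligases, 0 of 13 transcription factors and 0 of 15 negative regulators were called in any comparison. Ticam1, the adaptor of Tlr3, averaged 14.97 CPM in Ct Mφ, 10.9 CPM in ECH Mφ and 11.3 CPM in HF Mφ (ECH against Ct log2 -0.46, FDR 0.648). The kinases Ikbke (log2 0.80, FDR 0.134) and Tbk1 (log2 0.64, FDR 0.157), which act on interferon regulatory factors, had every ECH library above every Ct library. The same held for 4.33% of all genes. Irak2, a kinase recruited by Myd88, gave -0.67 in HF against Ct (FDR 0.0984) and the Map3k7-binding protein Tab2 -1.01 (FDR 0.127), both with every HF library below every Ct library. That was so for 4.45% of all genes. The NF-κB genes Nfkb1 (log2 -0.81, FDR 0.203) and Rel (log2 -0.53, FDR 0.364) had negative values in ECH, and 10 of the 13 transcription factors did (median -0.25, against 0.01 over all genes). Of the negative regulators, Il1rl1, a receptor of the interleukin family, gave -0.66 in ECH against Ct (FDR 0.140) and Tnfaip3, a brake on NF-κB, -0.68 (FDR 0.290), with 9 of 15 negative (median -0.0039).

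Of the endogenous ligands 1 of 9 was called. Fn1, fibronectin, rose in HF against Ct (log2 1.84, SE 0.37, FDR 0.0467), from 90.5, 72.2, 151 and 87.6 CPM in Ct to 178, 276, 357 and 625 CPM in HF, with 171, 322, 397 and 275 CPM in ECH. Its HF range lay wholly above that of Ct, as in 4.59% of all genes. The call was lost on leaving out any of 10 of the 12 libraries in turn (highest FDR 0.149), with only the groups compared (FDR 0.0747), and with library set as a covariate (log2 1.39, FDR 0.319). Fibroblast markers were positive in 6 of 6 in HF against Ct (median 0.67, 0 called), with sums of 72.4, 163, 218 and 102 CPM in HF libraries 1 to 4. Their part in the Fn1 value was not tested. S100a9, an alarmin also listed as a neutrophil marker, gave -1.98 in ECH against Ct (FDR 0.385) with a neutrophil marker sum of 344 to 1612 CPM in Ct and 191 to 515 CPM in ECH.

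Among the response genes of receptor stimulation, 13 of 18 tested had negative log2 fold changes in ECH against Ct (median -0.40, against 0.01 over all genes) and 15 in HF against Ct (median -0.37, against -0.01), and 1 was called, in HF. Cd40, a costimulatory receptor also borne by B cells, fell in HF against Ct (log2 -1.17, SE 0.20, FDR 0.0253), from 44.7, 44.6, 47.5 and 36.4 CPM in Ct to 16.5, 14.7, 24.1 and 21.8 CPM in HF. ECH libraries read 18.7, 18.4, 25.5 and 25.9 CPM of it (log2 -0.97, FDR 0.0521), so that both groups lay below all of Ct. Every ECH library was below every Ct library in 3.64% of all genes, and every HF library in 4.45%. The HF call of Cd40 was lost without Ct library 1 or without HF library 1, 2 or 4 (FDR up to 0.0846). B cell markers were also lower in both groups, and their part in the Cd40 value was not tested. Il6 stood at 9.71 to 62.7 CPM in Ct, 5.37 to 12.05 CPM in ECH and 6.86 to 13.1 CPM in HF (ECH against Ct log2 -1.83, FDR 0.126), with the lowest Ct library inside the other ranges.

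**Figure D5:**
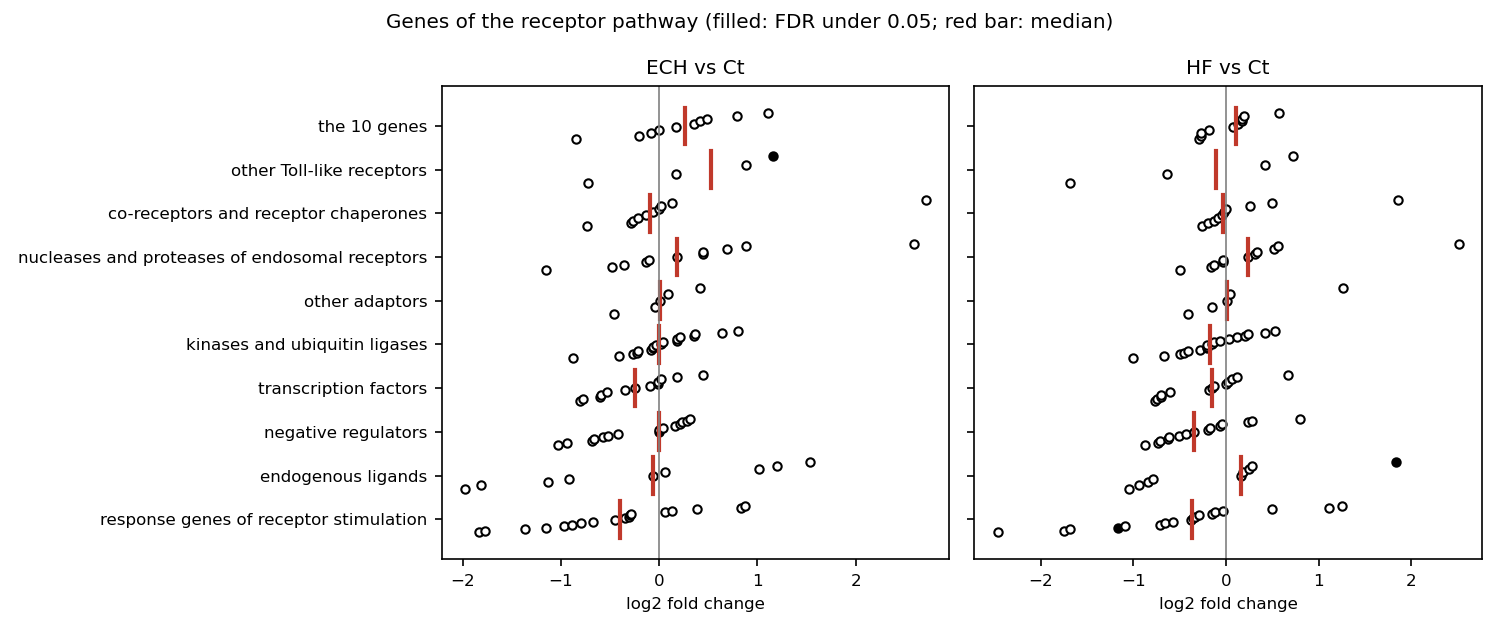
Log2 fold change of each gene tested in the 10-gene set and the 9 pathway lists, for ECH vs Ct and HF vs Ct, with filled points for an FDR under 0.05 and a red bar at the list's median. The filled points are Tlr13 in ECH vs Ct, and Fn1 and Cd40 in HF vs Ct; the medians of the response genes lie at -0.40 and -0.37.

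The genes whose log2 CPM followed each receptor most closely over the 12 libraries are given as a description, since the libraries share groups and sets. Tlr8 was most like Xrn2 (Pearson r = 0.946), Mertk (0.946), the receptor with which Mφ take up dying cells, and Sephs2 (0.934). Tlr7 was most like Pnpla2 (0.961), a triglyceride lipase, Mtmr12 (0.953) and Tmem87b (0.951). Tlr1 was most like Tmem173 (0.967), which encodes the DNA-sensing adaptor STING, Tpbgl (0.963) and Aamp (0.963), and Tlr4 like Slc25a12 (0.967), Tbc1d20 (0.943) and Med15 (0.941). Cd14 was most like Arid5a (0.954), Zfand5 (0.943) and the transcription factor gene Cebpb (0.893). Tlr9, the gene with the fewest counts, had its closest neighbours at 0.889 (Rai1), 0.839 (Icos) and 0.838 (Calr4). For Tlr2, Tlr3, Tlr6 and Myd88 the closest genes were 2010310C07Rik (0.934), Camk2d (0.922), Egfl8 (0.959) and Zpr1 (0.923).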

How the data were processed

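RNA of FACS-sorted CD14+/CD64+ cardiac Mφ from 12 mice was analysed, grouped by the condition in the labels (4 Ct, 4 ECH, 4 HF). From SMART-Seq v4 cDNA the authors sequenced paired ends of 75 bases (NextSeq 500), removed adapters with Trimmomatic, mapped to mm10 with TopHat2 and tallied genes with featureCounts, and the files as deposited hold raw counts per gene symbol. Their versions, annotation, strand option and unit of counting (read or fragment) were not given. The 24445 symbols entered edgeR 4.0.16 (R 4.3.3). Filtering with filterByExpr by group left 14608 genes, TMM scaled the libraries, and 1 quasi-likelihood model of the 3 group means used all 12, in which the biological coefficient of variation was 60.8%. Two-sided p values received a Benjamini-Hochberg adjustment across the genes tested (FDR), and a call is an FDR under 0.05. Values in the text are TMM-scaled CPM, likeness was computed on log2 CPM with 0.1 CPM added, and CPM per kb used the union of GENCODE M21 exons on GRCm38, matched by symbol.

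Named genes are the 10 of the set, pathway genes called or with the lowest p values in each list and comparison, and the 3 genes most like each member. Not all pathway genes that met this rule are printed. For Tlr2, Tlr3, Tlr6 and Myd88 only the closest one is printed, and Tlr8, Tlr13 and the library sets are dwelt on because of their values. Unc93b1, Ly96 and Tlr12 are named outside this rule, for their role, and were chosen after their values were seen. Ctss and Ctsk are also named outside it, because their ECH and HF libraries lay above those of Ct. The genes of the set, the lists and the tests were chosen with earlier results of these data known. Acod1, of the response genes, was not matched by symbol and so was not counted, which does not show that it was absent from the files. Trac, of the T and NK cell markers, was not matched either. Alternatives were RLE scaling, DESeq2 1.42.0, edgeR's likelihood ratio test, limma-voom (limma 3.58.1) with quality weights, other filters, only the groups compared, a replicate block, library set as covariate or by libraries, and leaving out libraries. The scripts were tested on simulated data. Promoter windows are from RefSeq on GRCm38.p6. Libraries carry no molecular identifiers, so the limit for a count of 0 covers counting error only, and 0 libraries were identical.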

Additional observations from a re-analysis of the deposited data

Results flagged for a closer look

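In 30 groups of 4 libraries, 10 genes in 3 groups, the gap of the lowest or highest library to its neighbour was compared with the range of the group by Dixon's criterion, which chance passes in about 1 in 20 groups, and 2 groups passed it. Tlr8 in HF library 1 was 93.9 CPM, against 136 to 145 CPM in the other HF libraries (ratio 0.851), and that library also had the fewest genes detected. Cd14 in ECH library 1 was 2993 CPM, where the remaining ECH libraries held 2139 to 2247 CPM (ratio 0.854).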

How the results depend on the processing

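Of 700 values of the 10 genes under alternatives, 652 kept their direction and side of the threshold, 12 became calls, 0 lost a call and 36 turned sign, 0 of them with an FDR under 0.05. In ECH vs Ct, DESeq2 called 2 of the 10 (480 genes in all), the likelihood ratio test 1 (367) and ECH libraries of the other set only, chosen after seeing the data, 1 (73); leaving out each library gave 0 to 1. In HF vs ECH DESeq2 called 1 (72 genes in all), the likelihood ratio test 1 (62), the fit with set as covariate 2 (Tlr7 log2 -1.38, FDR 0.00211, and Tlr8 -1.34, FDR 0.00631; 434 in all) and libraries of the same set only 3 (962 in all), and HF vs Ct stayed at 0. Over all genes the count of calls ran from 1 to 480 in ECH vs Ct (69 as reported), 16 to 714 in HF vs Ct (75) and 0 to 962 in HF vs ECH (0), and over the pathway lists from 0 to 12, 0 to 10 and 0 to 15. The causes of these changes were not tested.

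Values that turned sign (log2) were, in HF vs Ct, with limma-voom, Tlr1 -0.0078, Tlr6 -0.083 and Tlr9 -0.95; with set as covariate, Tlr3 0.16, Tlr4 -0.013, Tlr6 -0.55, Tlr8 -0.80 and Tlr13 -0.23; and without Ct library 2 and HF library 1, Tlr1 -0.13, Tlr3 0.062, Tlr4 -0.040 and Tlr9 -0.62. In ECH vs Ct they were Tlr1 0.17, Tlr2 0.12 and Cd14 0.016 with set as covariate, and Tlr1 0.16, Tlr2 0.11 and Cd14 0.0088 in the same set only. In HF vs ECH they were Myd88 with set as covariate (0.11) and in the same set only (0.11), and, with ECH libraries of the other set only, Tlr1 -0.0027, Tlr6 0.14 and Cd40 0.055. Leaving out each library turned Tlr2 in ECH vs Ct (-0.14 to 0.16), Tlr1 (-0.049 to 0.33), Tlr3 (-0.47 to 0.049), Tlr4 (-0.10 to 0.22), Tlr6 (-0.11 to 0.44) and Tlr9 (-0.52 to 0.97) in HF vs Ct, and Myd88 (-0.10 to 0.074) and Fn1 (-0.11 to 0.53) in HF vs ECH.

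Libraries with the same replicate number did not deviate together (12 pairs, r from -0.076 to 0.083, own number best for 1 of 12 libraries). With a replicate block, 0 of the 10 genes were called in each comparison, Tlr2 in ECH vs Ct was 0.0042 and Tlr9 in HF vs Ct -0.025, and the calls of Tlr13 (1.146, FDR 0.0686), Cd40 (-1.20, FDR 0.0540) and Fn1 (1.75, FDR 0.0653) were lost; all genes called fell to 24 in ECH vs Ct and 19 in HF vs Ct.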
